A study of Mus musculus with 4 samples.

Results

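The mouse erythroblast line G1E held 47 genes that were low with wild-type GATA-1 and with the GATA-1 2RA form, but stayed above 50% of the G1E control level with the GATA-1 V205M form. They were chosen by level: at most 50% of the G1E control in GATA-1 WT and in GATA-1 2RA, over 50% and under 200% of the control in GATA-1 V205M, and at least 2 times the GATA-1 WT level in GATA-1 V205M. Of 2982 genes in the 6 deposited tables, 1157 had a level in each of the 4 groups, 1124 of these reached 50 scaled reads in some group, and 48 met the limits. Solute carrier, histone and mitochondrially encoded genes and 8 further symbols were left out beforehand. Among the 48 this removed only Fth1, the ferritin heavy chain, at 8597 scaled reads with V205M, 2890 with WT, 2382 with 2RA and 13490 in the control.

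The G1E line comes from cells that lack GATA-1. The groups were GATA-1 V205M, GATA-1 WT, GATA-1 2RA and the G1E control, with 1 sample each, called V205M, WT, 2RA and control cells from here on, and all 4, the control included, carried the label of β-estradiol induction. The labels do not say how GATA-1 was introduced, whether a line is 1 clone, how long induction lasted or what 2RA changes. Total RNA was sequenced after TruSeq library preparation.

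GATA-1 is a zinc finger protein that switches on red cell genes and switches off genes of progenitor and mast cells. Much of this repression runs through FOG-1, encoded by Zfpm1, which binds the N-terminal finger of GATA-1 and brings the NuRD histone deacetylase complex to target genes. V205M lies in that finger and is known to weaken FOG-1 binding, and it is widely used to look for genes whose repression depends on FOG-1.

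Levels are the authors' read counts divided by a library size factor, called scaled reads here. They are not divided by transcript length, so they are compared between groups and not between genes. The recovered whole reads showed 2 count columns in V205M cells and 2 in control cells, with 1 column in each other group. The sources used here do not say whether paired columns come from separate cultures. Reads over the listed genes ranged from 276064 to 2178397 per column. Gata1 RNA stood at 614 scaled reads in V205M cells, 2652 in WT cells, 1421 in 2RA cells and 153 in control cells, so the amount of Gata1 RNA moved with the form and its part in the members' levels was not tested. Of 26 erythroid genes fixed as a list, 24 were listed lower in V205M cells than in WT cells (5.65% of 12931 tested genes), and none higher (3.70%). The number of genes tested by the authors, 12931, was inferred from their p-values and adjusted p-values. The comparison of 2RA with V205M was not used for this and was given the same number. All shares of tested genes rest on it. Of 23 megakaryocyte genes, 9 were in the tables, with 2 listed lower in V205M cells than in WT cells and none higher, and 5 listed lower in V205M cells than in control cells and none higher. Of 31 stem and progenitor genes, 15 were in the tables, with 9 listed higher and 1 lower in V205M cells than in WT cells, and 3 higher and 4 lower in V205M cells than in control cells. Of the remaining lists of blood and tissue cell markers, mast cells apart, the tables held 1 lymphocyte, 1 endothelial, 1 stromal, 2 eosinophil or basophil and 3 neutrophil or macrophage genes. In bulk RNA, fewer cells of a type and less RNA per cell cannot be told apart.

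As a fraction of the control level, the 47 members had a median of 77.6% in V205M cells, 24.8% in WT cells and 37.4% in 2RA cells. The ranges were 50.1% to 172% in V205M cells, 1.81% to 48.5% in WT cells and 2.05% to 49.6% in 2RA cells. These ranges follow from the choice of the members and are a description. The median log2 difference was 1.52 between V205M cells and WT cells, from 1.03 to 5.13, against -0.41 over all 1157 genes. Between V205M cells and 2RA cells it was 1.17, from 0.47 to 5.06, against -0.21 over all genes. Against control cells, the members' median was -0.37 in V205M cells, -1.99 in WT cells and -1.41 in 2RA cells, and the median over all genes was 0.21, 0.86 and 0.41 in the same order. All log2 values have 1 scaled read added.

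**Figure D1:**
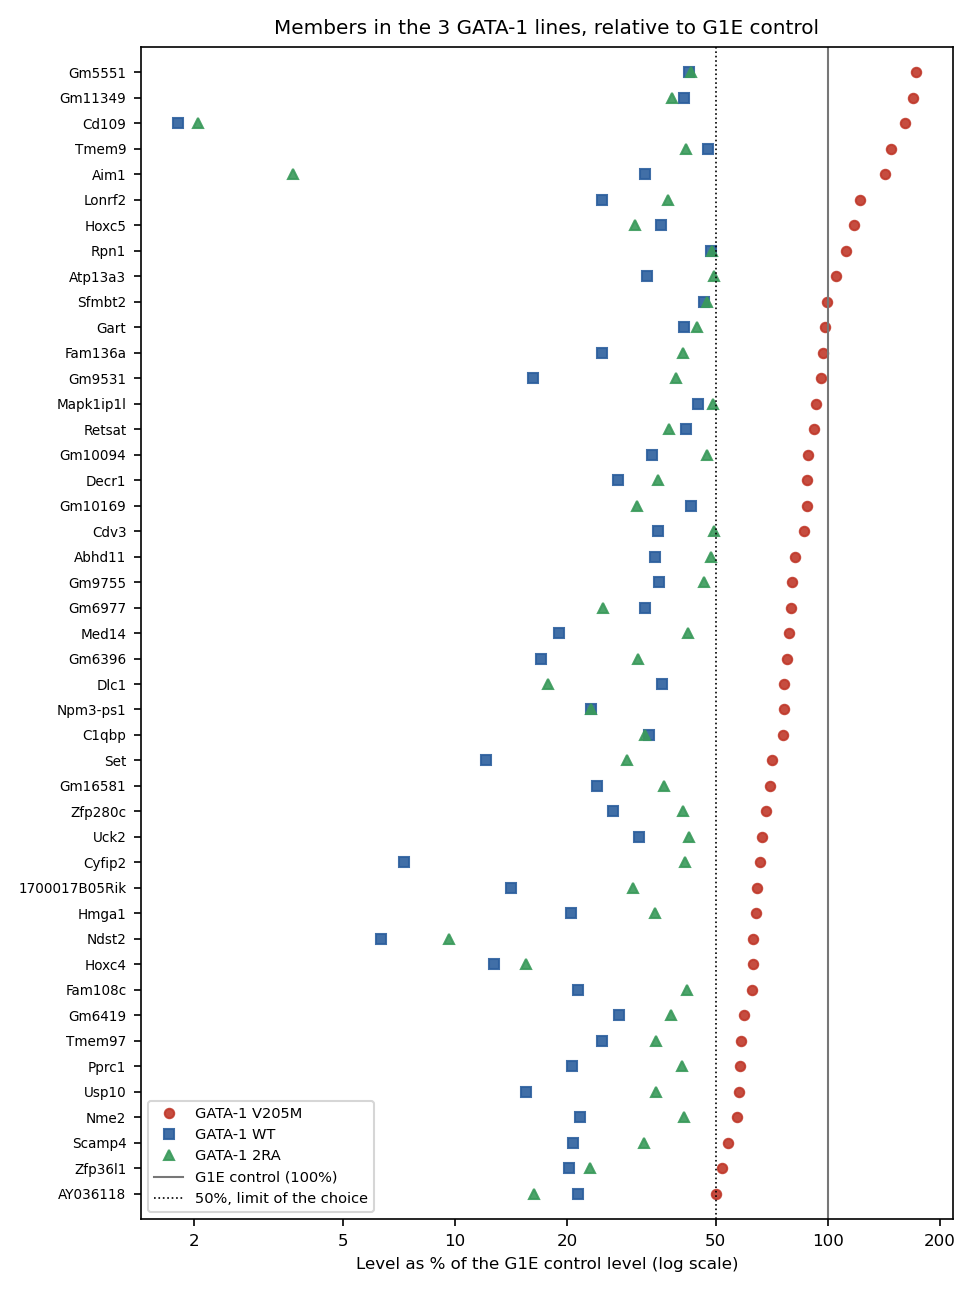
Level of 45 of the 47 members as a percentage of its G1E control level, on a log axis, in V205M cells (red circles), WT cells (blue squares) and 2RA cells (green triangles), ordered by the V205M value. The solid line marks the control and the dotted line the 50% limit of the choice: V205M points run from 50.1% to 172%, WT points from 1.81% to 48.5% and 2RA points from 2.05% to 49.6%.

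The authors' deposited tables list a gene when its adjusted p-value is below 0.01 and its change above 2-fold. Of the members, 46 were listed higher in V205M cells than in WT cells, against 3.70% of tested genes, and Dlc1 was the exception. In WT cells, 45 were listed lower than in control cells (4.86% of tested genes), all but Aim1 and Gm11349. In 2RA cells, 46 were listed lower than in control cells (2.61% of tested genes), all but Cyfip2. None was listed between V205M cells and control cells, a comparison that listed 8.15% of tested genes in either direction. These contrasts chose the members, so nothing is read from the counts.

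No limit was set on the ratio of V205M cells to 2RA cells. In that comparison, 27 members were listed higher in V205M cells in the authors' deposited table (2.62% of tested genes) and the other 20 were not listed. By level, 28 of 47 reached 2 times the 2RA level, against 21.3% of the 1157 genes, and 19 did not. The limits require V205M to exceed 2RA for every member, so the direction is fixed, the size comes from levels the limits used, and nothing is read from the share. Released only in V205M is therefore a description of the limits, and for 19 of 47 members, V205M and 2RA lay on opposite sides of the 50% line at less than 2 times each other's level.

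Ndst2, which encodes a sulfotransferase that modifies heparin in mast cell granules, showed one of the widest gaps between V205M and WT. It is at chr14:20723730-20734562 on the minus strand (GRCm38). It had 1318 and 1360 scaled reads in the 2 columns of V205M cells, 134 in WT cells, 204 in 2RA cells, and 2261 and 1987 in the columns of control cells. Both V205M columns were far above WT and 2RA and below both control columns. The V205M level was 9.98 times the WT level (95% counting interval 8.67 to 11.5) and 6.55 times the 2RA level (5.79 to 7.42). All intervals are exact binomial intervals on the pooled recovered reads and cover counting error only.

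Ndst2 was the single member among 30 mast cell genes on a list, of which 16 were in the tables. Of these 16, 14 were listed lower and 1 higher in WT cells than in control cells (4.86% and 8.17% of tested genes). In V205M cells, 10 were listed higher and 1 lower than in WT cells, the exception both times being Srgn, the serglycin core protein of the granules, at 4.15 scaled reads in V205M cells, 215 in WT cells and 69.6 in control cells. Against control cells, 5 were listed higher in V205M cells (Il1rl1, Ms4a2, Tpsab1, Hdc and Adora3) and 7 lower (4.83% and 3.32% of tested genes). Il1rl1, Ms4a2, Hdc, Gata2 and Kit on this list were also left out by symbol, but none of them met the limits. The other 3 list genes with the highest control levels did not share one pattern. Cpa3, a mast cell protease, stood at 14.6 scaled reads in V205M cells, 0.630 in WT cells, 5.0 in 2RA cells and 2795 in control cells. Kit, the stem cell factor receptor, stood at 1440, 179, 2218 and 2429 in that order of groups, and Gata2 at 1316, 54.8, 514 and 773. Cpa3 was thus low in all 3 GATA-1 forms, whereas Kit and Gata2 were above 50% of the control in both mutants.

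**Figure D2:**
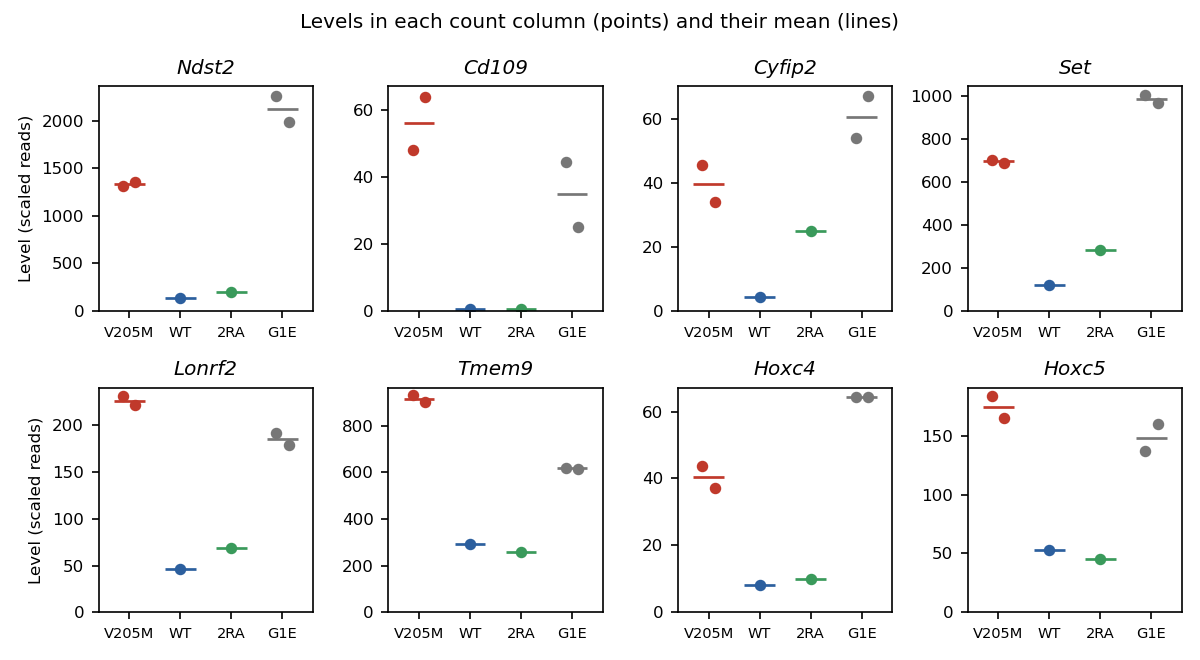
Scaled reads of 8 members in each count column (points) with the column mean (lines), on linear axes from 0, for V205M cells and control cells (2 columns each) and WT cells and 2RA cells (1 column each). Both V205M points lie above the WT and 2RA points in all 8 panels, and above both control points for Cd109, Lonrf2, Tmem9 and Hoxc5.

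Lonrf2 and Usp10 act in protein turnover and differed in how far they returned to the control. Lonrf2, a RING-finger protein with a LON domain, had 231 and 221 scaled reads in V205M cells, 46.0 in WT cells, 69.3 in 2RA cells, and 192 and 179 in control cells, and was above the control in V205M cells. Usp10, a deubiquitinase that acts on p53, had 58.5 and 59.1 in V205M cells, 15.8 in WT cells, 35.0 in 2RA cells, and 99.4 and 104 in control cells.

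The group of chromatin and transcription genes held 9 members, with V205M minus WT differences from 1.09 to 2.54 (log2). The role groups were drawn up after the values had been seen and are only an order of description. Set encodes a histone chaperone that also inhibits the phosphatase PP2A and lies at chr2:30057378-30072577. It had 702 and 688 scaled reads in V205M cells, 119 in WT cells, 285 in 2RA cells, and 1001 and 965 in control cells, and V205M was 5.84 times WT (5.02 to 6.83) and 2.44 times 2RA (2.18 to 2.73). The 4 groups were thus ordered G1E, V205M, 2RA, WT from high to low with no overlap of columns. Med14, the backbone subunit of Mediator, had the same order, with 276 and 280 in V205M cells, 67.4 in WT cells, 149 in 2RA cells, and 326 and 381 in control cells.

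Hmga1 encodes an AT-hook protein that binds and bends AT-rich DNA. It had 112 and 125 scaled reads in V205M cells, 37.8 in WT cells, 63.6 in 2RA cells, and 190 and 179 in control cells. Both V205M columns lay above WT and 2RA and below both control columns. Over 50% of the 50-base windows of its transcript recur elsewhere in the annotation, so its counts are uncertain.

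Hoxc4 and Hoxc5, neighbouring homeobox genes at chr15:103018934-103036852 and chr15:102967443-103017429, were both members. Hoxc4 had 43.8 and 37.1 scaled reads in V205M cells, 8.19 in WT cells, 10 in 2RA cells, and 64.2 and 64.4 in control cells, with only 13 reads behind the WT value and 14 behind the 2RA value. V205M was 4.94 times WT, with a wide interval of 2.76 to 9.71. Hoxc5 had 184 and 165 in V205M cells, 52.9 in WT cells, 45.0 in 2RA cells, and 137 and 160 in control cells. Unlike Hoxc4, its V205M columns stood above both control columns. The cluster did not move as a block: Hoxc8 had 9.45 scaled reads in V205M cells, 1.89 in WT cells, 27.2 in 2RA cells and 107 in control cells, and Hoxc10 had 2.79, 1.26, 104 and 1.83 in that order of groups. An exon of Hoxc10 overlaps Hoxc5 on the same strand.

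The remaining members of this group had differences at the lower end. Pprc1, a coactivator related to PGC-1, had 116 and 109 scaled reads in V205M cells, 39.7 in WT cells, 78.6 in 2RA cells, and 199 and 188 in control cells, and overlaps Ldb1 on the opposite strand. The sources used here do not say whether reads were counted by strand. Zfp280c, a zinc finger protein, had 155 and 139 in V205M cells, 57.3 in WT cells, 87.9 in 2RA cells, and 212 and 218 in control cells. Sfmbt2, a Polycomb-group protein with MBT repeats, had 190 and 167 in V205M cells, 83.1 in WT cells, 85.0 in 2RA cells, and 190 and 168 in control cells. Sfmbt2 was the member whose V205M level was closest to the control, at 99.8%.

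The 2 cytoskeleton genes differed in 2RA. Cyfip2, a subunit of the WAVE complex that drives actin branching, had 45.5 and 34.1 scaled reads in V205M cells, 4.41 in WT cells, 25.0 in 2RA cells, and 54.0 and 67.2 in control cells. The WT value rests on 7 reads, and V205M was 9.03 times WT (4.25 to 23.4) and 1.59 times 2RA (1.08 to 2.46). Dlc1, a GTPase-activating protein, had 79.1 and 68.1 in V205M cells, 34.6 in WT cells, 17.2 in 2RA cells, and 97.7 and 95.1 in control cells. In Dlc1 the 2RA level was the lowest of the 4 groups, whereas in Cyfip2 it was 5.67 times the WT level.

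Genes of RNA decay and nucleotide supply gave 4 members, all below the control in V205M cells. Zfp36l1, which promotes decay of mRNAs with AU-rich elements, had 306 and 268 scaled reads in V205M cells, 112 in WT cells, 127 in 2RA cells, and 584 and 518 in control cells, and lay just inside the limit at 52.1% of the control. Gart, a multifunctional enzyme of purine synthesis, lay at 98.6% of the control, with 473 and 492 in V205M cells, 202 in WT cells, 219 in 2RA cells, and 542 and 436 in control cells. Its V205M columns lay between the 2 control columns. Uck2, which phosphorylates uridine and cytidine, had 224 and 253 in V205M cells, 112 in WT cells, 152 in 2RA cells, and 391.5 and 327 in control cells. Nme2, a nucleoside diphosphate kinase, had 114 and 99.2 in V205M cells, 40.3 in WT cells, 76.4 in 2RA cells, and 206 and 165 in control cells, and shares exons with the readthrough gene Gm20390.

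The mitochondrial and lipid genes were 5, with V205M levels from 75.7% to 97.1% of the control. Fam136a, a mitochondrial protein, had 517 and 548 scaled reads in V205M cells, 136 in WT cells, 224 in 2RA cells, and 565 and 532 in control cells. Decr1, a reductase of unsaturated fatty acid oxidation, had 172 and 189 in V205M cells, 56.1 in WT cells, 72.2 in 2RA cells, and 215 and 196 in control cells. Abhd11, a mitochondrial hydrolase, had 245 and 211 in V205M cells, 96.4 in WT cells, 136 in 2RA cells, and 311 and 249 in control cells. In these 3 the 2RA level was above the WT level, but for Decr1 the counting interval of 2RA over WT spanned 1, at 0.9585 to 1.731. C1qbp, a protein of the mitochondrial matrix, had 220 and 201 in V205M cells, 92.6 in WT cells, 90.0 in 2RA cells, and 302 and 255 in control cells. Retsat, which saturates retinol, had 128 and 99.2 in V205M cells, 51.7 in WT cells, 46.4 in 2RA cells, and 128 and 120 in control cells. For C1qbp and Retsat the counting interval of 2RA over WT also spanned 1, at 0.760 to 1.24 and 0.639 to 1.26.

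The membrane and secretory group of 7 held 4 members above the control in V205M cells. Cd109, a GPI-anchored co-receptor that dampens TGF-β signalling, had 48.1 and 64.1 scaled reads in V205M cells, 0.630 in WT cells, 0.714 in 2RA cells, and 44.5 and 25.2 in control cells. The WT and 2RA values are 1 recovered read each, the lowest count that the recovery allowed. Whether that value stands for no reads was not tested. The V205M to WT ratio of 89.1 rests on this floor, with a counting interval of 15.5 to 3510. The 2 control columns of Cd109 differed more than those of any other member. Tmem9, a protein of late endosomes and lysosomes, had 929 and 900 in V205M cells, 295 in WT cells, 256.5 in 2RA cells, and 619 and 616 in control cells. Its paired columns differed by little, and its V205M level was 1.48 times the control (1.37 to 1.601).

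Rpn1, a subunit of the enzyme that attaches N-linked glycans, lies at chr6:88084482-88105304, near Gata2. It had 779 and 719 scaled reads in V205M cells, 324 in WT cells, 327 in 2RA cells, and 714 and 621 in control cells. In 2RA cells, Rpn1 stood at 49.0% of its control level, just inside the limit, while Gata2 kept 514 scaled reads against 773 in the control. Atp13a3, an ATPase of polyamine transport, had 865 and 825 in V205M cells, 263 in WT cells, 397 in 2RA cells, and 903 and 705 in control cells, with overlapping V205M and control columns.

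The other 3 were below the control in V205M cells. Fam108c (now Abhd17c), an enzyme that removes palmitate from proteins, had 103 and 92.2 scaled reads in V205M cells, 33.4 in WT cells, 65.7 in 2RA cells, and 164 and 148 in control cells. Tmem97, the sigma-2 receptor, had 147 and 124 in V205M cells, 57.3 in WT cells, 80.02 in 2RA cells, and 242 and 221 in control cells. Scamp4, a secretory carrier membrane protein, had 61.0 and 73.1 in V205M cells, 25.8 in WT cells, 40.0 in 2RA cells, and 117 and 132 in control cells. Its transcript shares 96.2% of its windows with Gm49322 and overlaps Adat3, so its reads may belong to more than 1 gene.

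Annotated processed pseudogenes, which are copies of spliced mRNAs placed elsewhere in the genome, made up 9 of the 45 members found in GENCODE M21, or 20%. Among the other 1090 matched genes with all 4 levels they were 66, or 6.06%, and among the 301 matched genes low in WT cells they were 18, or 5.98%, the members included. By release pattern they were 6 of 90 genes released in both mutants, 1 of 61 released in 2RA and low in V205M, and 2 of 76 low in all 3 forms. Release in these other classes had no upper limit against the control, unlike in the members. Apart from the symbols left out beforehand, annotation played no part in the choice of members. Those symbols were also left out of the 301 genes but not of the 1090, and no test was made of the difference. A further member, Gm10094 (now Sap18b), is annotated as coding but is nearly identical to Sap18. At least 50% of the 50-base windows of the transcript were shared with another gene in 10 of 45 members (22.2%) and 52 of 1090 other genes (4.77%), and 19 members (42.2%) and 663 other genes (60.8%) shared no window. The sources used here do not say how reads that match several places were assigned, so whether reads counted for a copy come from the gene it matches was not tested.

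Pairs of stretches show how little sequence separates a copy from its source, each over 60 coding bases of GENCODE M21 transcripts (GRCm38). Capitals mark the differing base, and positions are counted from 1 at the 5′ end of the stretch, with the base of the source first. Set, on chromosome 2, and Gm9531, on chromosome 9, are identical from the start codon.
Set: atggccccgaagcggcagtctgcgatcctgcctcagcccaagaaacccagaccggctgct
Gm9531: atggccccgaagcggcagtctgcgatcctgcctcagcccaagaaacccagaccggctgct
Npm3, on chromosome 19, and Npm3-ps1, on chromosome 6, differ by C49T from the start codon, which turns the codon CGA into the stop codon TGA in the copy.
Npm3: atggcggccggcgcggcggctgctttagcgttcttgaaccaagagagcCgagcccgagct
Npm3-ps1: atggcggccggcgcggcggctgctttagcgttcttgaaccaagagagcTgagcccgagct
Mif, on chromosome 10, and Gm10169, on chromosome 7, differ by G35A from the start codon, which turns CGC into CAC.
Mif: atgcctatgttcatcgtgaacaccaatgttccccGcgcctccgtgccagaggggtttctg
Gm10169: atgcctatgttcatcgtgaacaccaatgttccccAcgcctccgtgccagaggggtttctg

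Gm9531 shares 100% of its windows with Set. It had 889 and 881 scaled reads in V205M cells, 150 in WT cells, 362 in 2RA cells, and 1008 and 842 in control cells, and its mean levels had the same order of groups as those of Set. Reads of these symbols cannot be told apart where the sequences are identical. Gm10169 shares 68.9% of its windows with Mif, a cytokine, and had 425 and 414 in V205M cells, 205.3 in WT cells, 147 in 2RA cells, and 475 and 481 in control cells. Mif stood at 442 in V205M cells, 186 in 2RA cells and 456 in control cells, and its WT level was not in the tables. Where both had a level, Mif and Gm10169 kept the same order of groups.

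Gm5551 and Gm11349 both match Ppid, which encodes cyclophilin 40, over 16.1% and 15.4% of their windows, so they share a target. Gm5551 had 218 scaled reads in each column of V205M cells, 53.5 in WT cells, 54.3 in 2RA cells, and 144 and 109 in control cells. Gm11349 had 184 and 220 in V205M cells, 49.1 in WT cells, 45.7 in 2RA cells, and 141 and 97.9 in control cells. These were the members furthest above the control, at 172% and 169%. Ppid itself stood at 1573 in V205M cells, 567 in WT cells and 535 in 2RA cells, with no control level in the tables.

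Npm3-ps1, which shares 55.9% of its windows with Npm3, had 644 and 627 scaled reads in V205M cells, 193 in WT cells, 194 in 2RA cells, and 901 and 767 in control cells. Npm3 stood at 30.9 in WT cells, 25.7 in 2RA cells and 95.9 in control cells. Gm6977, which shares 12.5% of its windows with Fth1, had 978 and 984 in V205M cells, 399 in WT cells, 306 in 2RA cells, and 1303 and 1158 in control cells. Fth1 itself met the same limits but was left out by symbol. Gm16581, which shares 24.9% of its windows with Srrm2, had 74.8 and 57.1 in V205M cells, 22.7 in WT cells, 34.3 in 2RA cells, and 102 and 86.7 in control cells. Gm6419, which shares 30.5% with Mrpl42, had 179 and 215 in V205M cells, 90.7 in WT cells, 126 in 2RA cells, and 325 and 336 in control cells. Srrm2 stood at 1821 in V205M cells, 821 in WT cells and 2091 in control cells, and Mrpl42 at 60.5 in WT cells, 79.3 in 2RA cells and 188 in control cells.

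Both remaining copies match genes outside the tables. Gm9755 shares 92.3% of its windows with Tufm, a mitochondrial translation factor, and had 228 and 224 scaled reads in V205M cells, 99.5 in WT cells, 131 in 2RA cells, and 264 and 299 in control cells. Gm10094 shares 98.8% with Sap18, a subunit of Sin3 corepressor complexes, and had 144 and 129 in V205M cells, 52.3 in WT cells, 73.6 in 2RA cells, and 164 and 146 in control cells.

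**Figure D3:**
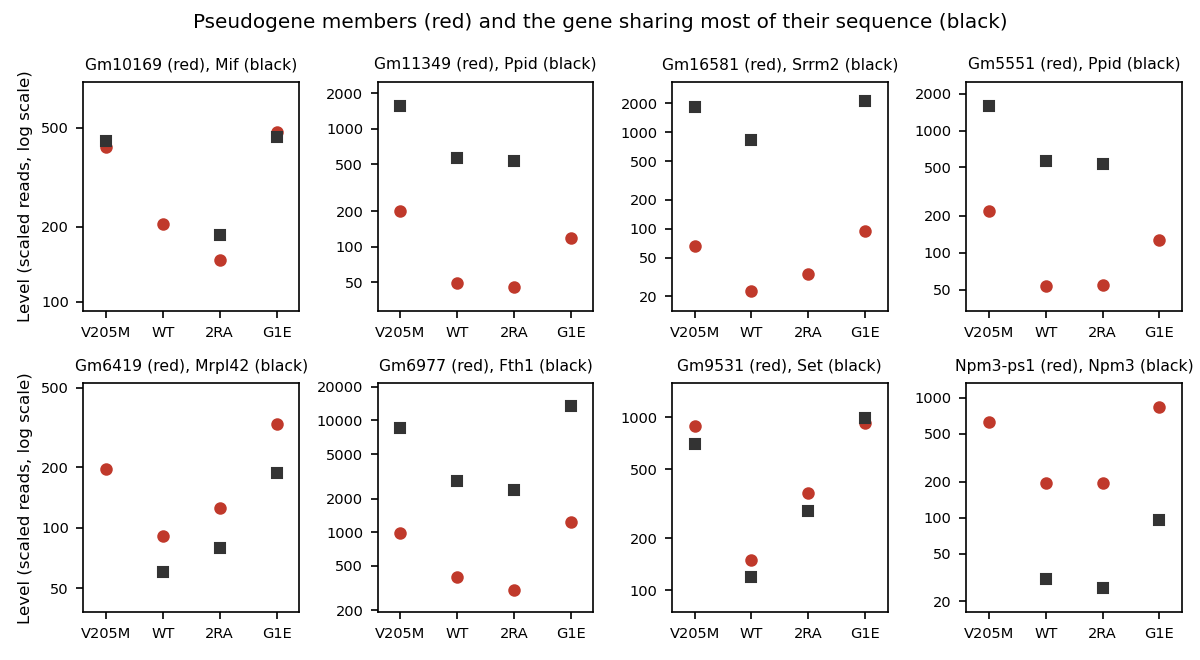
Scaled reads on log axes of 8 pseudogene members (red circles) in V205M cells, WT cells, 2RA cells and control cells. Black squares show the gene that shares more of their 50-base windows than any other gene. That share ran from 12.5% (Gm6977 with Fth1) to 100% (Gm9531 with Set). A missing square is a level not in the tables. Gm9531 and Set keep the same order of the 4 groups, with Set at 119 scaled reads in WT cells and 983 in control cells.

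The 6 members given no role held the largest contrast between WT and 2RA. Aim1 had 58.5 and 52.1 scaled reads in V205M cells, 12.6 in WT cells, 1.43 in 2RA cells, and 38.6 and 39.2 in control cells. The 2RA value is 2 reads, and 2RA over WT was 0.113 (0.0129 to 0.467). Aim1 is an older symbol of 3 genes in RefSeq, so it was tied to no locus. AY036118, a long noncoding RNA at chr17:39847113-39848035, had 2474 and 2183 in V205M cells, 994 in WT cells, 759 in 2RA cells, and 4886 and 4418 in control cells. At 50.05% of the control in V205M cells it was the member nearest the limit. Its exon overlaps CT010467.1 on the same strand and Gm42418 on the other. It shares 100% of its windows with CT010467.1, so its reads may belong to more than 1 gene.

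1700017B05Rik had 92.0 and 80.1 scaled reads in V205M cells, 18.9 in WT cells, 40.0 in 2RA cells, and 141 and 126 in control cells. Gm6396, which matched no annotated gene, had 360 and 405 in V205M cells, 83.8 in WT cells, 153 in 2RA cells, and 491 and 495 in control cells. Both were among the 12 members with the widest V205M to WT gap. Cdv3 had 170 and 174 in V205M cells, 69.9 in WT cells, 99.3 in 2RA cells, and 199 and 202 in control cells. Mapk1ip1l had 468 and 432 in V205M cells, 217 in WT cells, 239 in 2RA cells, and 495 and 473 in control cells.

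How far each member came back to the control varied. In V205M cells, 9 members were above control cells and 38 below, while 55.0% of all 1157 genes were above it. By count column, 8 members had both V205M columns above both control columns (49.5% of all genes), 33 had both below (39.2% of all genes) and 6 overlapped. The counting interval of V205M over control lay above 1 in 8 members, across 1 in 8 and below 1 in 31. For these intervals no share over all genes is given, so nothing is read from their number. The 9 above the control were Gm5551, Gm11349, Cd109, Tmem9, Aim1, Lonrf2, Hoxc5, Rpn1 and Atp13a3. With levels scaled by total reads over the 1157 genes, 5 of them stayed above it, from 1.15 to 1.40 times the control. Of all genes, 47.5% were above the control under that scaling. These were Gm5551, Gm11349, Cd109, Tmem9 and Aim1. Lonrf2, Hoxc5, Rpn1 and Atp13a3 then lay between 0.853 and 0.986 of the control. The limits used both levels and asked for a high control, so these counts are a description and nothing is read from their difference from all genes.

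Among the members, 2RA levels were more often above than below WT levels. The limits bear on this, since V205M had to reach 2 times WT but no such limit was set against 2RA, so the counts are a description. The 2RA level was above the WT level in 37 members and below it in 10, against 46.4% of all genes above, and the median log2 difference between 2RA and WT was 0.47, against -0.12 over all genes. With levels scaled by total reads over the 1157 genes with all 4 levels, 44 were above, against 57% of all genes. By the median of ratios 42 were above, against 54% of all genes. The counting interval of the ratio lay above 1 in 26 members, below 1 in 5 and across 1 in 16. No share over all genes is given for these intervals, so nothing is read from their number. In the authors' deposited table, 5 members were listed higher in 2RA than in WT (3.33% of tested genes) and none lower. They included Cyfip2 at 5.67-fold (authors' adjusted p 0.00728), Gm9531 at 2.42-fold (2.23e-05), Set at 2.39-fold (2.85e-08) and Med14 at 2.22-fold (0.000371). Gm9531 and Set share sequence, so they are not separate signals. The 5 members with the interval below 1 were Aim1, Dlc1, Gm10169, AY036118 and Gm6977, of which Aim1 and Dlc1 had at most 50% of the WT level.

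**Figure D4:**
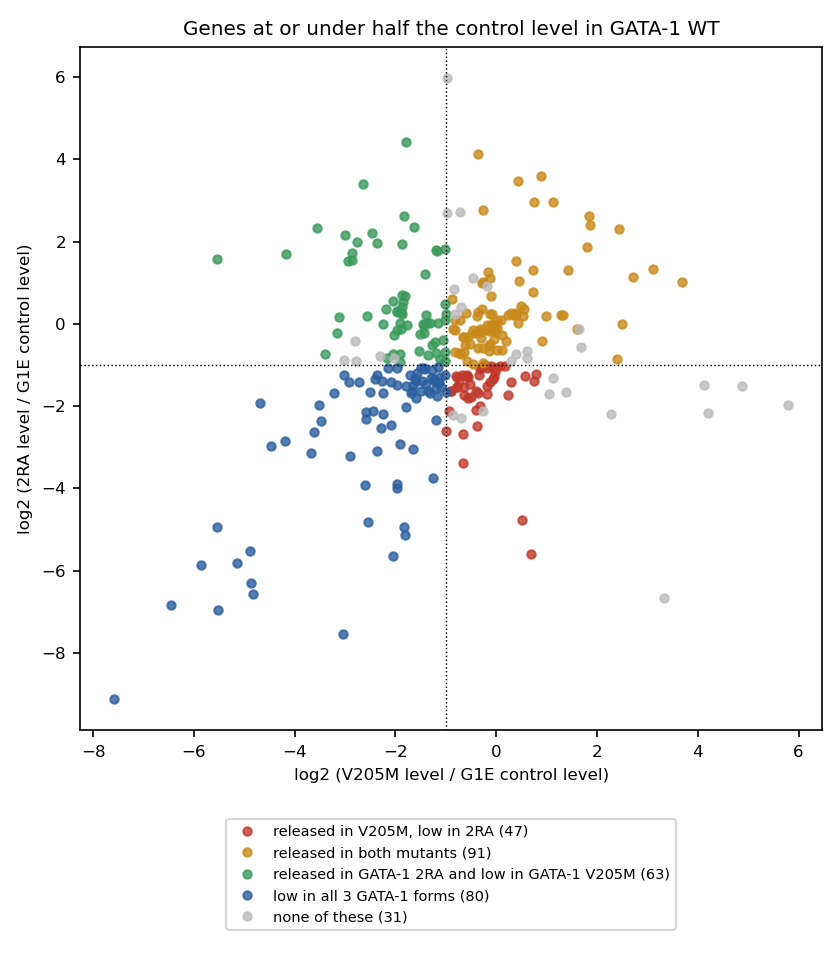
The 312 genes at most 50% of control cells in WT cells, plotted by the log2 ratio of V205M cells to the control (horizontal) and of 2RA cells to the control (vertical), with dotted lines at a ratio of 50%. The 47 members (red) lie in the lower right. Next to them are 91 genes released in both mutants (orange) and 63 released in 2RA and low in V205M (green). A further 80 are low in all 3 forms (blue). The other 31 meet none of these limits (grey), and some of them also lie in the lower right. Only the members had an upper limit on release against the control.

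Among all 312 genes that were at most 50% of the control in WT cells, the members were 15.1%. A further 91 were released in both mutants, 63 were released in 2RA and low in V205M, and 80 were low in all 3 forms. Release in these classes had no upper limit against the control, unlike in the members. Adora3 counted as released in both mutants at 308.5 scaled reads in V205M cells against 23.96 in control cells. Ednra, at 729.6 in V205M cells, 0.7144 in 2RA cells and 72.21 in control cells, fell into none of these classes. The class sizes are therefore not compared. The members run up to their neighbours without a gap, as the plot of the 312 genes by both mutants shows. At the 2RA limit, Cdv3 (0.496 of the control), Atp13a3 (0.494), Mapk1ip1l (0.493), Rpn1 (0.490) and Abhd11 (0.485) lay just inside, and Spn (0.506), St6galnac4 (0.513), Fam198b (0.530), Xpo6 (0.534) and Sssca1 (0.562) just outside. At the V205M limit against the control, AY036118 (0.501), Zfp36l1 (0.521), Scamp4 (0.539) and Nme2 (0.572) were among those just inside, and Tmem109 (0.492), Higd2a (0.465), Dctd (0.436), Gm13225 (0.416) and Zc3hav1l (0.415) outside. At the limit of 2 for V205M over WT, Gm10169 (2.04), Mapk1ip1l (2.08), Dlc1 (2.12), Uck2 (2.13) and Sfmbt2 (2.15) lay inside, and BC048355 (1.81), Epb4.1l5 (1.65) and Dyrk3 (1.56) outside.

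The 2 count columns of a group bound the spread that can be seen here. Both V205M columns were above WT and 2RA in 47 of 47 members. Both were at least 2 times WT in 43, the others being Retsat, Gm6419, Dlc1 and Mapk1ip1l. Both control columns were at least 2 times WT in 45 members, all but Gm11349 and Rpn1, and at least 2 times 2RA in 40. The limits fixed these directions for the group levels, which are the means of the same columns. The column counts are therefore a description. No share over all genes is given for them, so nothing is read from their number. The SD of the log2 ratio between columns was 0.17 in V205M cells and 0.20 in control cells over the members. The largest difference between columns was 0.41 (Cyfip2) in V205M cells and 0.80 (Cd109) in control cells. WT and 2RA have 1 column each and so no spread of their own, and 3 members each had under 20 reads in WT and in 2RA.

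Promoters were taken from RefSeq (GRCm38.p6), as 250 bases before to 50 after each gene's start, and 28 of 47 members had one in that table. The 4 spellings of the GATA motif (AGATAA or AGATAG or TGATAA or TGATAG, on both strands) were found in 4 of 28 member promoters, or 14.3%, against 177 of 801 other genes with all 4 levels (22.1%) and 8166 of 27025 promoters (30.2%). CACCC, bound by Krüppel-like factors, was found in 19 member promoters (67.9%), against 67.3% of the other genes and 56.7% of all promoters. The AP-1 motif (TGACTCA or TGAGTCA) was found in 4 member promoters (14.3%), against 29 of the 801 (3.62%) and 5.17% of all. These are descriptions of letters in a short window, and they say nothing of distant elements. A CACCC can overlap the end of TGACTCA, and GATA spellings can overlap each other.

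The 4 with a GATA spelling were AY036118, Nme2, Pprc1 and Tmem97, and those with an AP-1 spelling included C1qbp, Retsat and Usp10. The 250 bases before the start of 2 coding members of each kind are printed 5′ to 3′ on the gene's strand, with the motif in capitals, to show where the letters lie. In Pprc1 (chr19:46056289-46056538, plus strand) the spelling, on the opposite strand, begins 101 bases before the start, and in Nme2 (chr11:93956257-93956506, minus strand) 136 bases before it. RefSeq starts Pprc1 and Retsat within the spans that GENCODE gives them, so the printed letters of Pprc1 and the AP-1 spelling of Retsat lie inside the GENCODE gene.
Pprc1: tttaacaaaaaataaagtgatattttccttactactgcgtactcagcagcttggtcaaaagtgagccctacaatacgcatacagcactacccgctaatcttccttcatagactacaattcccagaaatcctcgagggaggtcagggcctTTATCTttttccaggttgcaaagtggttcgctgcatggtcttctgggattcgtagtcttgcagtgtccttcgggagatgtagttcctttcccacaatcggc
Nme2: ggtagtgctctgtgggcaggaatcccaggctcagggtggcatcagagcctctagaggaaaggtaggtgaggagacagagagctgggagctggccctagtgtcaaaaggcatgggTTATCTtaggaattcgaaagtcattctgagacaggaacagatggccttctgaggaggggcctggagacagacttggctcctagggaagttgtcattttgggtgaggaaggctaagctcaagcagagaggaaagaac
In C1qbp (chr11:70983027-70983276, minus strand) the AP-1 spelling begins 106 bases before the start, and in Retsat (chr6:72598352-72598601, plus strand) 102 bases before it.
C1qbp: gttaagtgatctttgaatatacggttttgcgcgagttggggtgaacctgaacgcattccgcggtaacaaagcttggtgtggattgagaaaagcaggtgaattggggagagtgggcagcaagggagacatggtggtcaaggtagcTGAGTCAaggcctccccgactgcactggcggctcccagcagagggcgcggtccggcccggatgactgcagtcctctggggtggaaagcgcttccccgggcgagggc
Retsat: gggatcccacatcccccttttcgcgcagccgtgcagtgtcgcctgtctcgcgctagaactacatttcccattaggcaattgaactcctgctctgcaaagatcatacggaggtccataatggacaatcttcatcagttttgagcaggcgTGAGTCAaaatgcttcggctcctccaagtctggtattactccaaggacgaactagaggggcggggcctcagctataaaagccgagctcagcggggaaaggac
Nme2 and Pprc1 had V205M levels of 57.2% and 58.3% of the control, and C1qbp and Retsat of 75.7% and 91.6%.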

How the data were processed

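Total RNA of 4 G1E samples, 1 per group, was sequenced. The mm10 build and the tools Cuffdiff, Cufflinks, deepTools and TopHat are named, per the submitters' processing notes, with no word on which of them made the tables. Per the file headers, each of the 6 tables holds for a pair of groups the signal (mean scaled read count), the fold as a ratio, its log2 value, and a p-value with its adjusted p-value, all made by the authors. Every deposited row has an adjusted p under 0.01 and differs more than 2-fold, so a level is known only where a gene is listed with that group.

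Deposited levels were whole reads divided by a size factor, and reads were recovered for 100% of the values, with size factors of 1.163 and 0.9983 (GATA-1 V205M), 1.588 (GATA-1 WT), 1.4 (GATA-1 2RA), and 1.167 and 0.3574 (G1E control). Reads over listed genes came to 1147539 and 977544, 2178397, 1218762, and 1015015 and 276064 in that order. The recovery allowed no count below 1 in any column. Whether a count of 1 stands for no reads, or 1 was added to every count, was not tested. The deeper columns carry less counting error. Columns were not treated as replicates, except in the edgeR and DESeq2 fits, which take their spread from the paired columns. The origin of the columns bounds what the authors' p-values measure. Levels were joined by symbol, log2 differences used a pseudocount of 1, and ratios carry 95% exact intervals on pooled reads while the ratio itself is of the deposited levels. Symbols were matched to GENCODE M21 (45 of 47). Shared sequence was counted in 50-base windows of the longest transcript, and no read length was given in the sources used here.

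With 1 sample per group, no test of a difference between groups is read as a result. Alternatives were edgeR 4.0.16 and DESeq2 1.42.0 on recovered reads, other scalings, pseudocounts, limits and single columns. The members, gene lists and role groups were chosen with earlier results of these data known. Of the 47 members, 2 are counted but not reported by name here. The others are all named, with full values first for the widest V205M to WT gaps, the highest control levels, members on a list, members near the limits and members above the control.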

Additional observations from a re-analysis of the deposited data

How the results depend on the processing

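The choice of 47 genes depended on the limits: with limits of 3 in place of 2 only 10 genes were left, all of them members. Under the other planned choices the number was 38 to 66, but 38 of the 47 remained members when levels were scaled by total reads (53 genes) and 38 when scaled by the median of ratios (66 genes). Scaling moved the median V205M minus WT difference of all 1157 genes from -0.41 as deposited to 0.01 by total reads and 0.08 by the median of ratios. By total reads and by the median of ratios, the members' median log2 difference was 1.93 and 2.00 for V205M over WT, -0.68 and -0.63 for V205M over the G1E control, -2.71 and -2.74 for WT over the control, and -1.73 and -1.91 for 2RA over the control. V205M over 2RA came to 1.42 by the median of ratios. All 37 alternatives of the 5 medians kept their sign, and 28 moved by less than the SD between count columns. The scaling of counts of members was added after seeing the data. The number with V205M above the control was 5 and 6 in place of 9. The share of all genes moved as well, to 47.5% and 48.5% in place of 55.0%.

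Over 1157 genes with recovered reads, edgeR's quasi-likelihood test, which takes its spread from the paired columns, called 983 genes between V205M and WT (397 higher, 586 lower), and with TMM 993 (490 higher, 503 lower). DESeq2 called 846 and the authors' tables listed 719. With filterByExpr the count was 983. The 1157 are the genes with a level in all 4 groups, and each was already listed as changed by the authors in some comparison. A high share of calls therefore follows from the choice of genes, and nothing is read from it. These counts describe libraries and not conditions. No paired analysis was possible because each group has 1 sample and the labels carry no replicate numbers. No difference between groups has a replicate check, and genes with fewer than 20 reads (3 members in WT, 3 in 2RA) have wide counting intervals.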
